A study of Homo sapiens with 4 samples.

Results

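The genes described here are 10 members of the S100 family of calcium-binding proteins: S100A2, S100A4, S100A6, S100A7, S100A8, S100A9, S100A10, S100A11, S100A14 and S100P. They were picked by the gene name that the array design gives to each probe, and every probe with one of those names was kept, which gave 12 probes for 10 of the 30982 gene names on the array. S100A10 and S100A11 had 2 probes each and the other genes had 1. RNA was measured in FaDu, an established line from a hypopharyngeal squamous cell carcinoma, and in HSC3, an established line from a squamous cell carcinoma of the tongue, 72 h after transfection with miR-489, miR-504 or a control miRNA. Each of 4 Agilent oligo-microarrays took Cy5-labelled RNA of 1 miRNA transfectant (miR-489 or miR-504, in FaDu or in HSC3) together with Cy3-labelled RNA of control transfectants of the same line. There was 1 array per condition, without a dye swap, and each line stands for 1 tumour. The labels do not say whether both Cy3 samples of a line came from 1 RNA or from separate transfections, so p-values below measure only the spread between arrays.

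S100 proteins are small, mostly dimeric proteins with a pair of EF-hand loops, and binding of calcium opens a surface with which they hold other proteins. Inside cells they act on the cytoskeleton, on membranes and on transcription factors, and several are also released and bind receptors such as RAGE (gene AGER) and TLR4. In stratified epithelia most of them are made by keratinocytes, with S100A2 typical of the basal layer, and S100A7 (psoriasin), S100A8 and S100A9 (the subunits of calprotectin) strongly raised in stressed, inflamed or differentiating cells. S100A10 is the partner of annexin A2, S100A6 (calcyclin) and S100A4 bind cytoskeletal and signalling proteins, S100A11 (calgizzarin) binds annexins and acts in keratinocyte growth, and S100P is named after placenta and is frequent in carcinomas. Along chromosome 1, RefSeq's GRCh38.p14 annotation puts 9 of the 10 genes among the genes of the epidermal differentiation complex, and S100P lies on chromosome 4.

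Both miRNAs are shown because all ratios below compare their transfectants with controls. The labels give no arm, so the mature forms are those to which the plain names were usually given, with bases 2 to 8, the seed, in capitals.
hsa-miR-489-3p: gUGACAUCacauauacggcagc
hsa-miR-504-5p: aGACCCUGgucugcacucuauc
In RefSeq's GRCh38.p14 the first lies at chr7:93483947-93483968 (minus strand, gene MIR489) and the second at chrX:138667760-138667781 (minus strand, gene MIR504). Their seeds of 7 bases share a base at 2 positions.

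Signals were the median intensity of a spot less its median local background. For levels, each channel was scaled to the same median over probes well above background on the 4 arrays, and this is called the scaled signal. Ratios are log2 of Cy5 over Cy3, centred on the array's median. Between 58.2% and 59.2% of spots were well above background in Cy3 and 61.2% to 62.6% in Cy5, 118 to 137 outlier spots per array were left out, and 0 spots were saturated. Probes spotted repeatedly on an array varied with a standard deviation of 0.0887 to 0.104 in the log2 ratio and 0.142 to 0.194 in log2 Cy3. One pair of samples stood apart. The Cy3 signals of the HSC3 arrays, which carry the same label, correlated with r = 0.987 and their log2 differences had a standard deviation of 0.395, against r = 0.993 and 0.289 for FaDu. Since S100 genes were among those that differed most, results on HSC3 are given for each array. Keratins and other squamous markers were present on all arrays, with all 9 probes of the 7 marker genes found by name well above background. VIM, a mesenchymal marker, was high in HSC3 (16689 to 34689 scaled Cy3 signal over its 2 probes) and near background in FaDu (24.7 to 45.0). Of the 6 mesenchymal genes examined, CDH2 and ZEB1 went the other way. They were well above background in FaDu alone, and at least 3.71- and 3.31-fold higher there. Neither was tested, and the direction of these bounds follows from their being measured in FaDu alone. COL1A1, COL1A2 and PDGFRB were at or near background in both lines.

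The first question was how far the control transfectants of both lines differ in S100 mRNA. S100A14 was higher in FaDu, S100A6 and S100A11 were higher in HSC3, S100A4 was modestly higher in FaDu, and S100A8, S100A9 and S100A7 were well above background in HSC3 alone. Of the 12 probes, 8 had Cy3 well above background on all arrays and were tested with limma (moderated test, Benjamini-Hochberg adjustment over 20912 probes), with both arrays of a line as its replicates. The S100A7, S100A8 and S100A9 probes passed only in HSC3, and the second S100A10 probe (A_32_P366909) passed on no array. Of the 8 tested, 3 probes were lower in FaDu, against 20.4% of all probes, and 2 were higher, against 28.2%. The median difference of the 8 probes was −0.43 on the log2 scale and that of all probes 0.08.

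S100A14, a member known from epithelial tumours, had scaled Cy3 signals of 11787 and 12744 in FaDu (miR-489 array first, as below) and of 3187 and 2543 in HSC3. FaDu was 4.31-fold higher (log2 2.11, 95% confidence interval 1.70 to 2.51, limma adjusted p = 0.000201). S100A4, also called metastasin, gave 287 and 179 in FaDu and 98.4 and 106 in HSC3. It was 2.21-fold higher in FaDu (log2 1.15, 0.59 to 1.70, adjusted p = 0.00652 by limma), and the FaDu arrays differed from each other by more than the HSC3 arrays did.

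S100A6 gave 28168 and 25111 in FaDu and 60054 and 45138 in HSC3, a level 1.96-fold higher in HSC3 (limma adjusted p = 0.00511). The first S100A11 probe (A_23_P126593) gave 2763 and 2643 in FaDu and 6706 and 7979 in HSC3, and the other (A_23_P145863) gave 5229 and 4996 in FaDu and 11901 and 13065 in HSC3. Both S100A11 probes thus placed HSC3 higher, by 2.71-fold (adjusted p = 0.000582, limma) and 2.44-fold (adjusted p = 0.000676). S100A6 and S100A11 encode dimers that bind annexins.

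S100A2, a gene of basal keratinocytes, gave 132632 and 140563 in FaDu and 156632 and 118040 in HSC3. The lines overlapped, with a log2 difference of 0.01 and a 95% interval of −0.42 to 0.44. The S100A10 probe with signal (A_23_P137984) gave 32195 and 22079 in FaDu and 29762 and 27880 in HSC3, with an interval of −0.60 to 0.38. Neither gene passed (limma adjusted p = 0.981 and 0.680). The second S100A10 probe, between 13.9 and 26.4 on the 4 arrays, was not well above background in either channel, carries the accession of another transcript and gives no level.

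**Figure D1:**
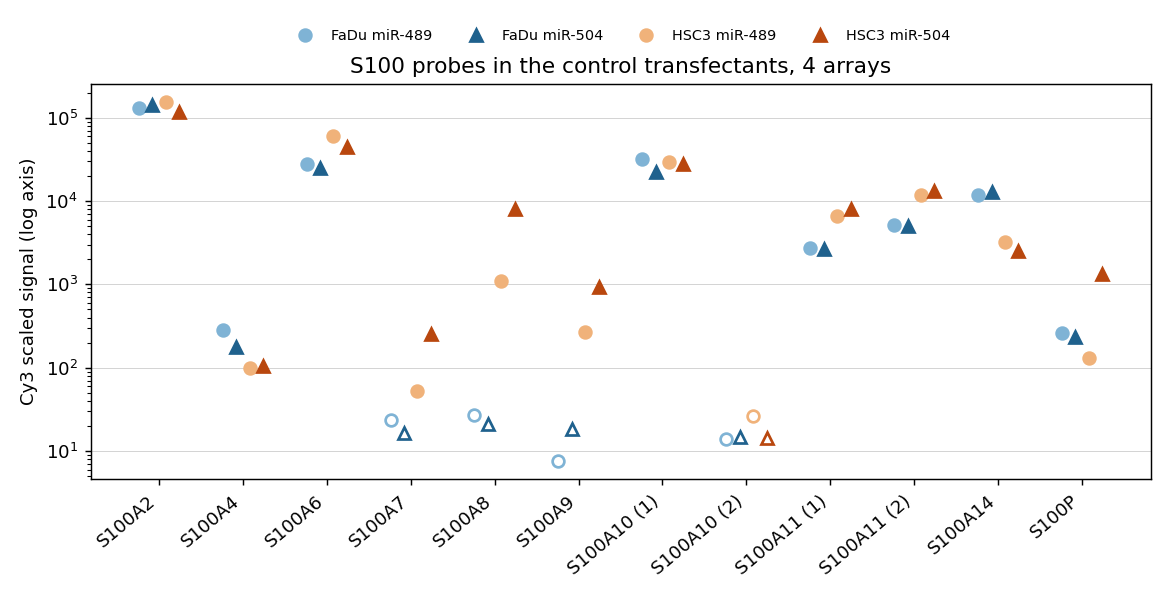
Scaled Cy3 signal (log axis) of the 12 S100 probes in control transfectants, with FaDu in blue and HSC3 in orange, circles for the miR-489 arrays and triangles for the miR-504 arrays. Open symbols are not well above background. The HSC3 symbols of S100A7, S100A8, S100A9 and S100P lie far apart from each other, at 1094 and 8025 for S100A8, while those of the other genes lie close together.

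S100A8 encodes the smaller subunit of calprotectin. Its scaled Cy3 signals were 27.3 and 21.2 in FaDu, neither well above background, and 1094 and 8025 in HSC3. S100A9, the larger subunit, gave 7.50 and 18.5 in FaDu and 266 and 921 in HSC3. S100A7 gave 23.6 and 16.3 in FaDu and 52.7 and 253 in HSC3. These 3 genes were grouped because they were well above background in HSC3 alone. That both HSC3 arrays lay above both FaDu arrays follows from this grouping. The HSC3 arrays lay several-fold apart.

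Because these genes were not well above background in FaDu, only a lower bound of the difference was calculated, against the FaDu signal or, where this was lower, the dimmest probe of its array that was well above background. HSC3 was at least 122-fold higher in S100A8, at least 21.6-fold in S100A9 and at least 5.05-fold in S100A7. With the HSC3 miR-489 array alone the bounds were 44.9-fold, 11.6-fold and 2.30-fold, and with the HSC3 miR-504 array alone 329-fold, 40.3-fold and 11.1-fold. The size of these differences therefore rested on which HSC3 array was used, and their direction was set by how the genes were grouped. In Cy5 the scaled FaDu signals of S100A8 were 1.61 and 1.02, again not well above background.

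S100P showed the widest gap between the HSC3 arrays, and its order between the lines changed with the array. It gave 259 and 236 in FaDu, 130 on the HSC3 miR-489 array and 1322 on the HSC3 miR-504 array. The FaDu mean was 1.90-fold above the first of these HSC3 values and 5.35-fold below the second. Over both arrays the difference was −0.75 on the log2 scale with an interval of −2.89 to 1.39 (limma adjusted p = 0.524). Without the HSC3 miR-504 array it was 0.92 (adjusted p = 0.00567 by limma), and without the HSC3 miR-489 array −2.42 (adjusted p = 0.000156). Each of these fits has 1 HSC3 array, which is assumed to vary like the FaDu pair, so their p-values leave out the spread between the HSC3 arrays.

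**Figure D2:**
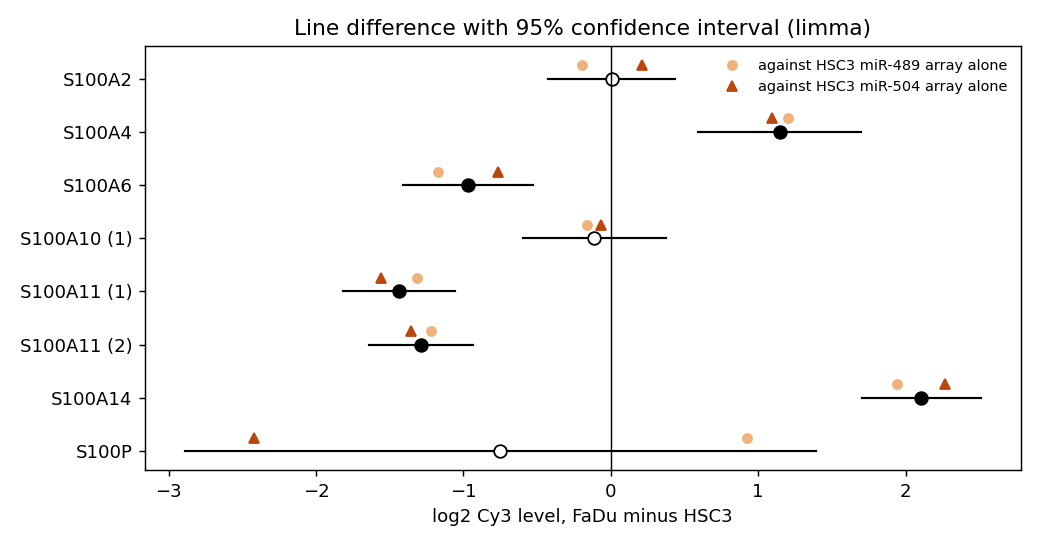
Difference in log2 Cy3 level, FaDu minus HSC3, of the 8 tested S100 probes, with the 95% confidence interval from limma. Filled black circles passed an adjusted p of 0.05, and orange circles and triangles give the FaDu mean against the HSC3 miR-489 or miR-504 array alone. S100P runs from 0.92 to −2.42 between the arrays, whereas both arrays place S100A14 and S100A4 higher in FaDu and S100A6 and S100A11 higher in HSC3.

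The pair of HSC3 control samples was then compared directly, which was decided on once the values were known. S100P was 10.1-fold, S100A8 7.33-fold, S100A7 4.80-fold and S100A9 3.47-fold higher in Cy3 of the HSC3 miR-504 array than in Cy3 of the HSC3 miR-489 array. Among 22568 probes well above background on both arrays, in order of this difference, these genes stood at places 15, 19, 28 and 52. Thus 4 of the 11 S100 probes were at least 2-fold higher, against 0.904% of all probes, and 0 were at least 2-fold lower, against 1.28%. With 1 array on each side there is no test. The size for S100A7 depended on the processing, at 2.76-fold with no background subtraction and 8.52-fold in the processed signal of the scanner software. The median difference over the 11 probes was 0.13 and over all probes −0.06, since the remaining 7 probes lay between −0.41 and 0.25.

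The miRNA transfectants on the same arrays differed alike. In Cy5 S100P was 11.6-fold, S100A7 8.22-fold, S100A8 7.34-fold and S100A9 4.21-fold higher on the HSC3 miR-504 array. Again 4 of 11 S100 probes were at least 2-fold higher (3.35% of all probes) and 0 were at least 2-fold lower (2.58%). Cy3 and Cy5 of an array hold RNA of different transfectants but are read from the same spot, 1 per probe, so differences between the RNAs and between the arrays cannot be told apart.

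In FaDu S100A7, S100A8 and S100A9 were not well above background, so of these genes S100P alone could be compared between the FaDu arrays. S100P, at 259 and 236, differed by −0.14 on the log2 scale in FaDu Cy3 and by 0.95 in FaDu Cy5, the latter close to 2-fold. Of the 8 S100 probes measured there 0 were at least 2-fold higher (0.352% of all probes) and 0 lower (0.467%) in Cy3, as in Cy5 (2.45% of all probes higher and 1.8% lower).

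**Figure D3:**
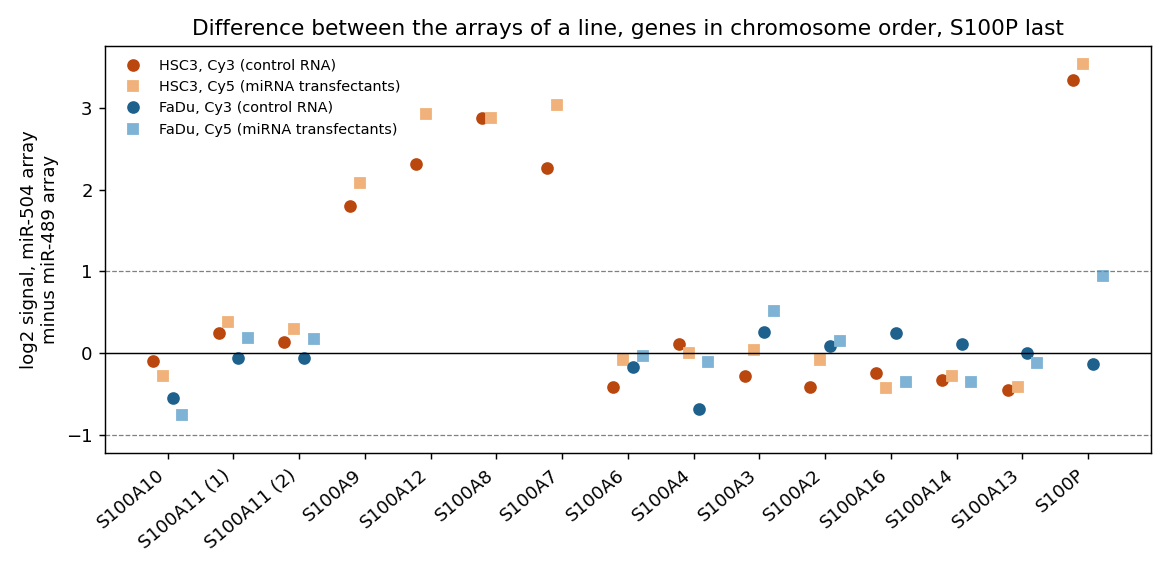
Difference in log2 signal between the arrays of a line (miR-504 array minus miR-489 array) for S100 probes well above background on both HSC3 arrays, in Cy3 (circles) and Cy5 (squares), HSC3 in orange and FaDu in blue. Genes follow their order along chromosome 1, with S100P of chromosome 4 last, and dashed lines mark 2-fold. S100A9, S100A12, S100A8, S100A7 and S100P lie at 1.79 or above in both HSC3 channels, and the other genes lie within the dashed lines.

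The genes of chromosome 1 that differed are neighbours. In RefSeq's annotation S100A9, S100A12, S100A8, S100A7A and S100A7 are neighbours with no other protein-coding gene between them, followed by S100A6, S100A5, S100A4, S100A3, S100A2, S100A16, S100A14, S100A13 and S100A1. S100A12, a neutrophil gene that is no member of the set, was read from 10 other S100 genes examined, of which S100A3, S100A13 and S100A16 were well above background on all arrays and 6 on none. S100A12 gave scaled Cy3 signals of 17.7 and 16.8 in FaDu, not well above background, and of 49.2 and 245 in HSC3, a difference of 2.32 on the log2 scale between the HSC3 arrays. S100A7A was well above background on no array. S100A6, the next gene in line, differed by −0.41, and the following genes with signal by −0.45 to 0.11. S100A7 and S100A7A are near-identical in sequence, and how far a probe of one reads the other was not tested.

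Small proline-rich (SPRR) genes of the epidermal differentiation complex, which encode proteins of the cornified envelope, differed in the same direction between the HSC3 control samples. Of 10 genes of the complex examined 8 were found by name on the array, with 12 probes. Only 4 of these probes, of the 3 genes SPRR1A, SPRR1B and SPRR3, were well above background in both HSC3 samples. All 4 were at least 2-fold higher on the HSC3 miR-504 array, against 0.904% of all probes. The other 5 genes, IVL, LOR, FLG, RPTN and CRNN, gave no comparison in Cy3. Of these, IVL alone could be compared in Cy5, where it was 7.18-fold higher on the HSC3 miR-504 array. SPRR3, a small proline-rich envelope protein, went from 204 to 14580 scaled Cy3 signal and SPRR1B from 933 to 13460. The summed scaled Cy3 signal of the 12 probes was 967 to 1053 in FaDu and 3082 to 48826 in HSC3. Leukocyte markers, of interest because neutrophils and monocytes make S100A8, S100A9 and S100A12, summed to 182 to 189 in FaDu and 258 to 318 in HSC3. Of their 8 probes 6 were above background on no array, PTPRC, CSF3R, ELANE, LYZ and MPO among them, while CD14 was low on all arrays and CSF1R was measured in HSC3 at 153 and 133. GAPDH and ACTB differed between the HSC3 samples by −0.25 to 0.48 over 5 probes. Of the 9 squamous marker probes 0 differed by 2-fold, which is near the share of all probes (0.904% higher and 1.28% lower). In such bulk RNA, fewer cells making a transcript and less transcript per cell cannot be told apart. What made the HSC3 samples differ was not tested.

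Promoters of the 4 genes are shown because these genes were higher together in both channels, beside that of S100A14, which was not. Each is RefSeq's window on GRCh38.p14 of 250 bases before and 50 after a transcript start, 5′ to 3′ on the gene's strand, with TATAAA, the core of a TATA box, in capitals.
S100A8: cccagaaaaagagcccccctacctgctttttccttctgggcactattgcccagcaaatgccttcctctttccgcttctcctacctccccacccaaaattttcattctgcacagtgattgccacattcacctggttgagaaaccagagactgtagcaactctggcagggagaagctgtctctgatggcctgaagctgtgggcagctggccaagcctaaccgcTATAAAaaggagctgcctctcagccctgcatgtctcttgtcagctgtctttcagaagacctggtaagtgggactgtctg
S100A9: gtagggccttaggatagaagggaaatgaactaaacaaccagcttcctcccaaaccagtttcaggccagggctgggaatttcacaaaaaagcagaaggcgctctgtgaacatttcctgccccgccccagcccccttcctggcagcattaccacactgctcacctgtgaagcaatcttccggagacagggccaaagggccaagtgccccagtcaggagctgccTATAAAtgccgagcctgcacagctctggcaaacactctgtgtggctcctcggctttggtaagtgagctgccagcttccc
S100A7: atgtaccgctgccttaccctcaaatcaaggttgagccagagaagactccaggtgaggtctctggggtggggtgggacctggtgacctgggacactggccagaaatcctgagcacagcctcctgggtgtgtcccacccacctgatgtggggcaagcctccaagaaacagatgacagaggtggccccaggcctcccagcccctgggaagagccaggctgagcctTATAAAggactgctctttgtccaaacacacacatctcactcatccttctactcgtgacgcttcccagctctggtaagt
S100P: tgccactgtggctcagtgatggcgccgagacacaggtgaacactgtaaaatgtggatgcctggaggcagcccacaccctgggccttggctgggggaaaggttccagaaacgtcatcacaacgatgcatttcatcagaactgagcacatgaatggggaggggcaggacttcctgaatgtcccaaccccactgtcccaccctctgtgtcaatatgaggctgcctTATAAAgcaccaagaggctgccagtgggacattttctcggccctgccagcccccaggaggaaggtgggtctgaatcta
S100A14: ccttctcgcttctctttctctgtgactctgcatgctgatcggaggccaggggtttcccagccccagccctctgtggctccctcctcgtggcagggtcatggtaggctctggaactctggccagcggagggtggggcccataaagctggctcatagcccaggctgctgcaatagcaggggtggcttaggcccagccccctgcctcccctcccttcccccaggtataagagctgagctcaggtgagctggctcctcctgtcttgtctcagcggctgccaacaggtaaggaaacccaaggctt
The windows lie at chr1:153391024-153391323 (minus strand) for S100A8, chr1:153357604-153357903 (plus) for S100A9, chr1:153460602-153460901 (minus) for S100A7, chr4:6693628-6693927 (plus) for S100P and chr1:153616276-153616575 (minus) for S100A14. RefSeq gives S100A8 3 starts, and the window shown was chosen for its TATAAA, so that match was fixed by the choice. Of its other windows 1 has no TATAAA and 1 has it far upstream of where a TATA box usually is.

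In the windows shown TATAAA began 29 bases before the start in S100A8 and S100A9 and 28 bases before it in S100A7 and S100P. The S100A14 window has no TATAAA but reads tataag, which differs in its last letter, shortly before its start. Such variants were not searched for. On the written strand, 2.30% of all 35116 promoter windows have TATAAA beginning 20 to 40 bases before the start, and 11.5% have it on either strand anywhere. All 10 genes have a window, and the other member with the motif was S100A4, 31 bases before its start, whose HSC3 samples differed by 0.11 in log2 Cy3. Of 9 other S100 genes with a window 3 have it at that place, S100A7A, S100G and S100A13, the last in 1 of its 3 windows and with a difference of −0.45 between the HSC3 samples. S100A12, which was higher together with the 4 genes, has TATAAA only outside that place, nearer to its start. The motif thus was also found in genes that stayed within 2-fold and was not in place in 1 that did not. The AP-1 motif TGANTCA, which reads alike on both strands and is in 7.71% of windows, was found in 1 of the 10 genes, S100A2, and in 3 of the 9 others. The C/EBP-type motif TTNNGCAA (TTGCNNAA on the other strand, 10.5% of windows) was found in 1, S100A11, and in 2 of the 9 others. S100A12 holds both of these motifs. A match describes letters only.

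The second question was what transfection with either miRNA did to S100 transcripts within a line, read from Cy5 over Cy3 on each array. S100A11 was higher in Cy5 on every array and S100P was lower on the FaDu miR-489 array, and no other probe of the 10 genes passed 2-fold. For S100A11, probe A_23_P126593 gave log2 ratios in FaDu of 1.48 after miR-489 and 1.75 after miR-504, and in HSC3 of 1.58 and 1.67. Probe A_23_P145863 gave 1.26 and 1.52 in FaDu and 1.33 and 1.45 in HSC3. The second probe read lower than the first on every array, and over background corrections, loess and the deposited ratios the values of both stayed between 1.02 and 1.88.

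Counts of probes at least 2-fold higher are read against all probes. On the FaDu miR-489 array 2 of 8 S100 probes with signal were at least 2-fold higher (2.91% of all probes), on the FaDu miR-504 array 2 of 8 (2.32%), on the HSC3 miR-489 array 2 of 11 (2.77%) and on the HSC3 miR-504 array 2 of 11 (1.9%). Both were the S100A11 probes each time, that is 1 gene. At least 2-fold higher on all 4 arrays were 1.03% of 22488 probes. Lower by at least 2-fold were S100P on the FaDu miR-489 array (1 of 8, 7.99% of all probes) and 0 S100 probes on the other arrays (5.51% of all probes in FaDu miR-504, 7.63% in HSC3 miR-489 and 4.66% in HSC3 miR-504).

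A ratio shared by all arrays can come from the dye as well as from transfection, and without a dye swap these cannot be told apart. GAPDH had log2 ratios of 0.83 to 1.03 over the arrays, and the brightest ACTB probe 0.80 to 1.10. The other ACTB probes were lower, with means over the lines of −0.01 to 0.53 for either miRNA. In the deposited ratios GAPDH had means of 0.53 after miR-489 and 0.42 after miR-504, and S100A11 stayed at 1.04 or above on each array. The scanner software also read Cy5 of S100A11 from a second scan at low gain on 2 arrays for A_23_P126593 and on 3 arrays for A_23_P145863, where Cy3 was read from the scan at full gain. On the remaining arrays, read at full gain in both channels, the ratios were 1.48 and 1.75 for the former probe and 1.26 for the latter.

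S100P had log2 ratios in FaDu of −1.10 after miR-489 and −0.00 after miR-504, and in HSC3 of −0.33 and −0.18. Only the first of these was beyond 2-fold. The FaDu miR-489 value rested on scaled signals of 259 in Cy3 and 181 in Cy5, well above background in both, and the ratio was −0.85 without background subtraction. For the calprotectin genes, the HSC3 ratios of S100A8 were 0.45 after miR-489 and 0.41 after miR-504, those of S100A9 were 0.62 and 0.87, and those of S100A7 were 0.21 and 0.94. S100P, S100A8, S100A9 and S100A7, which differed several-fold between the HSC3 arrays, thus stayed within 2-fold between the channels of each HSC3 array.

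**Figure D4:**
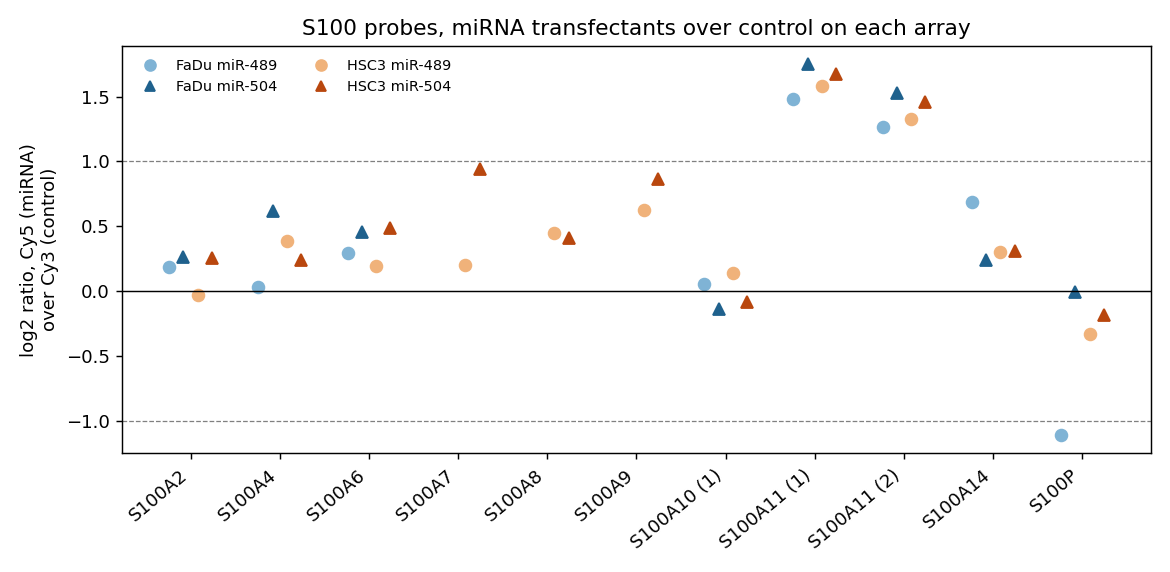
Log2 ratio of Cy5 (miRNA transfectants) over Cy3 (control) of S100 probes on each array, FaDu in blue and HSC3 in orange, where both channels were well above background. Dashed lines mark 2-fold. Both S100A11 probes lie between 1.26 and 1.75 on all arrays, and S100P lies at −1.10 on the FaDu miR-489 array.

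Taking FaDu and HSC3 as the replicates of each miRNA, limma tested 8 S100 probes among 20912. After miR-489, S100P was lower (−0.72, 95% interval −1.20 to −0.23, adjusted p = 0.0254), and 4 probes were higher. These were both S100A11 probes (1.53 and 1.30, adjusted p = 0.000883 each), S100A14 (0.50, adjusted p = 0.0157) and S100A6 (0.25, adjusted p = 0.0441). Of all probes 26.5% were lower and 30.5% higher, against 1 and 4 of the 8 S100 probes. S100A6 passed only without the cell line as a block (adjusted p = 0.0604 by limma with it) and turned to −0.045 after loess and −0.14 in the deposited ratios. Leaving out the FaDu miR-489 array ended the calls on S100P (−0.33, adjusted p = 0.0968), S100A14 (0.31, adjusted p = 0.0870) and S100A6 (0.19, adjusted p = 0.207).

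After miR-504, 4 S100 probes were higher and 0 lower, against 26.2% and 23.4% of all probes. Both S100A11 probes (1.71 and 1.49, limma adjusted p = 0.00134 each), S100A6 (0.47, adjusted p = 0.00739) and S100A4 (0.43, adjusted p = 0.0480) passed. S100A4 gave 0.62 in FaDu and 0.24 in HSC3. Leaving out the FaDu miR-504 array ended the calls on S100A6 (0.49, adjusted p = 0.0739 by limma) and S100A4 (0.24, adjusted p = 0.361), and so did leaving out the HSC3 miR-504 array (0.45 and 0.62, adjusted p = 0.0804 and 0.0730). The median over the 8 probes was 0.23 after miR-489 and 0.35 after miR-504, against 0.03 and 0.02 over all probes. Of the other S100 genes, S100A3, S100A13 and S100A16 passed as higher with both miRNAs, by 0.40 to 0.94. These were 3 of 3 tested, against 30.5% of all probes after miR-489 and 26.2% after miR-504. S100A3 reached 2-fold (1.01) on the FaDu miR-504 array. In the same fits GAPDH gave 0.97 after miR-489 and 0.85 after miR-504. S100A3 passed with all 9 background corrections and normalisations of the ratio, and S100A13 with 5. S100A16 passed with 9 after miR-489 and 5 after miR-504. For S100A13 and S100A16, Cy5 was read at low gain and Cy3 at full gain on every array. Cy3 RNA of a line may be shared by both contrasts.

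The contrast between the miRNAs frees the ratios from what they share. Here 0 of 8 S100 probes were lower (0.76% of all probes) and 0 higher (0.306%), and 0 of the 8 had an unadjusted p under 0.05 in limma, while 3869 of all 20912 did. S100P came nearest with −0.63 (interval −1.31 to 0.06, unadjusted p = 0.0653, adjusted p = 0.303 by limma). The S100A11 probes differed by −0.18 and −0.19 between the miRNAs, a size that did not pass. The ratio also did not separate FaDu from HSC3, with 0 S100 probes called lower (0% of all probes) and 0 higher (0%) by limma, and 668 of 20912 probes, none of them among the 8, at an unadjusted p under 0.05.

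Partners and receptors of S100 proteins were read from 15 genes, all on the array, with 34 probes. Of the 29 tested between the lines, 8 were higher in FaDu (28.2% of all probes) and 12 in HSC3 (20.4%). AGER, which encodes the receptor RAGE, was 4.70-fold higher in FaDu (limma adjusted p = 0.000173), at 479 and 457 against 88.2 and 112 scaled Cy3 signal. TLR4, the other receptor, was not well above background on its 3 probes. ANXA2, which holds S100A10 at the membrane, was higher in HSC3 on its 3 probes, by 1.42- to 1.96-fold, whereas S100A10 itself did not pass. ANXA1, a partner of S100A11, was 2.24-fold higher in HSC3 (adjusted p = 0.00243, limma). MYH9, the myosin heavy chain that S100A4 binds, was higher in HSC3 by 2.27- and 3.75-fold on its probes, while S100A4 was higher in FaDu. FABP5, the fatty acid-binding protein that S100A7 binds, was higher in FaDu on 4 of 4 probes, by 1.59- to 1.82-fold, where S100A7 was not well above background.

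AHNAK, a giant protein bound by the complex of S100A10 and annexin A2, differed between the miRNAs. Of the 29 partner probes 3 were lower after miR-489 than after miR-504 (0.76% of all probes), all of AHNAK (−2.22, −2.17 and −1.88, limma adjusted p = 0.0264, 0.0305 and 0.0305), and 0 were higher (0.306%). These calls were lost with no filter on dim probes and when any 1 of the 4 arrays was left out, where 0 of all probes passed. With the cell line as a block 4 partner probes were lower, AGER (−0.78, adjusted p = 0.0453, against 0.0561 without the block) in addition, and 1 was higher. Probe A_24_P943393 gave log2 ratios after miR-489 of −2.31 in FaDu and −2.25 in HSC3, and after miR-504 of −0.07 and −0.05. AHNAK probe A_24_P912684 gave a difference of −0.89 between the miRNAs (limma adjusted p = 0.183), and A_23_P21363 one of 1.40 in the opposite direction (adjusted p = 0.0522, and 0.0303 with the block). The array design lists A_23_P21363 for another transcript than the other AHNAK probes. S100A10 had ratios after miR-489 of 0.06 in FaDu and 0.14 in HSC3, and after miR-504 of −0.13 and −0.08. Against control, 11 of the 29 partner probes were higher after miR-489 (30.5% of all probes) and 8 lower (26.5%). After miR-504, 10 were higher (26.2%) and 2 lower (23.4%). ANXA2 was higher than control with both miRNAs on all 3 probes, by 0.39 to 0.90. Of these, A_32_P94798 gave 0.17 and 0.040 in the deposited ratios and passed in 7 and 5 of 9 settings. As for S100A11, dye and transfection cannot be told apart in these ratios.

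Likeness was measured over the 8 channels, as the root mean square distance between log2 profiles, each centred on its own mean, among 14155 probes of named genes outside the family with signal in all channels. The 3 closest matches were NDOR1 to S100A2 (0.0594), CBWD3 to S100A10 (0.0612) and DYNC1H1 to S100A6 (0.0693). For S100P the closest gene was DEFB4, at 0.431. This distance is not scaled to how far a profile varies, and S100P had a standard deviation of 1.32 over the channels, against 0.205 for S100A2, 0.265 for S100A10 and 0.548 for S100A6. Both channels of an array share its hybridisation, so the channels are not independent samples.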

How the data were processed

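Total RNA of FaDu and HSC3 transfectants was labelled, miRNA transfectants with Cy5 and control transfectants with Cy3 per the labels, and hybridised to 4 Agilent arrays on 1 slide, scanned together at a full and a low gain. The authors deposited scanner output of Feature Extraction, with spot and local background intensity, as median and as mean, not normalised. It also holds a log10 ratio that this software had made after spatial detrending and dye normalisation, and the deposited table of values was identical to it (largest difference 0). Its 0 or 1 marks (detection over background, outlier, saturation) served as filters. Log2 ratios of background-subtracted median intensities and the global normalisation follow the study's methods.

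Groups came from the labels, and numbers of arrays limit the precision. Levels were compared with limma 3.58.1 (R 4.3.3) over probes with Cy3 well above background on all arrays. The fits had 2 residual degrees of freedom, with a prior of 5.00 degrees of freedom and SD 0.170 for levels and 3.20 and 0.135 for ratios. The threshold was an adjusted p of 0.05. Scripts were tested on simulated data. The members, the gene lists and the tests were chosen with earlier results of these data known. Named were all members, list genes that were called or that neighbour or bind a member, and the 3 nearest profiles. Alternatives were normexp (offset 50), no background subtraction, the mean signal, loess (span 0.3), quantile normalisation, the deposited values, other filters and thresholds, the replicate block and leaving out each array. Genes carry the names of the array design. The files name no genome build for their coordinates, so none of them are given. Promoters, miRNAs and gene order are from RefSeq GRCh38.p14. Python 3.11.15 and matplotlib 3.10.9 drew the figures.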

Additional observations from a re-analysis of the deposited data

Results flagged for a closer look

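S100A10 (probe A_23_P137984) was picked out because its log2 ratios were above 0 on both miR-489 arrays (0.06 and 0.14) and below 0 on both miR-504 arrays (−0.13 and −0.08). The difference of 0.21 between the miRNAs did not pass limma over all probes (95% interval −0.07 to 0.49, adjusted p = 0.387), and after loess or in the deposited ratios S100A10 was below 0 with both miRNAs.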

How the results depend on the processing

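With 1 array per condition, counts of S100 probes are small and depend on the threshold. The counts below are given without the share of all probes under the same setting. A change in a count is therefore not a trait of S100 genes. After miR-489, for example, 11168 of all 34088 probes were called with no filter on dim probes, against 11933 of 20912 with the filter. Between the lines, 6 probes were called higher in HSC3, in place of 3, once probes measured in 1 line alone entered with a floor. The S100 probes that entered were those of S100A7, S100A8 and S100A9, with signal in HSC3 alone. Their direction was thus fixed by the filter, and this count adds nothing on the line difference. With no filter on dim probes, 1 in place of 2 was called higher in FaDu. On the single arrays, a 4-fold threshold left 0 probes in place of 2 higher on each of the 4 arrays and 0 in place of 1 lower on the FaDu miR-489 array. A 1.5-fold threshold gave 4 higher on the HSC3 miR-504 array, and counting the brightest probe of each gene gave 1. Lower on the FaDu miR-489 array, S100P was no longer counted (0) with normexp, with no background subtraction and with normexp and loess. With no filter the count lower was 3 after miR-489 and 2 after miR-504 in FaDu, and 1 after miR-489 in HSC3.

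After miR-489, 2 probes in place of 5 were called with no filter, and leaving out 1 array gave 2 to 4, the lower value without the FaDu miR-489 array. After miR-504, leaving out 1 array gave 2 to 6, the lower value without either miR-504 array. Leave-one-out counts between the miRNAs and between the lines' ratios were 0 throughout, and between the lines' levels they ranged from 2 to 3 higher in FaDu and from 3 to 4 higher in HSC3. Leaving out an array leaves a condition with 1 array, assumed to vary like the others. In the line level S100P was −2.42 (adjusted p = 0.000156) without the HSC3 miR-489 array and turned to 0.92 (adjusted p = 0.00567, limma) without the HSC3 miR-504 array.

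Dye normalisation moved the bright, nearly unchanged genes below 0. After miR-489, S100A2 turned to −0.29 with loess, −0.35 with normexp and loess and −0.46 in the deposited ratios and table. S100A6 turned to −0.045, −0.096 and −0.14 in the same settings, and S100A10 to −0.22 with normexp and loess and −0.25 in the deposited values. After miR-504, S100A2 turned to −0.29 in the deposited ratios and table. No other called value turned, and in the limma fits of either miRNA against control both S100A11 probes passed in every setting run. With no filter on dim probes the calls on S100A4 and S100A6 between the lines (adjusted p = 0.0708 and 0.0613 by limma), on S100P, S100A14 and S100A6 after miR-489 and on S100A4 after miR-504 were lost, and loess ended those on S100A6 and S100A4 after miR-504 (adjusted p = 0.0760 and 0.0525).

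The cell line as a replicate block gave 4 called S100 probes in place of 5 after miR-489 (S100A6 was lost), 4 after miR-504 and 0 between the miRNAs, and the miRNA as a block gave 0 between the lines' ratios. No label says that arrays of a line form a pair. The difference between the HSC3 control samples (4 probes at least 2-fold higher) was 4 in each of 6 settings added after seeing the data, with S100P between 7.41- and 12.2-fold, S100A8 between 7.12- and 7.74-fold, S100A9 between 3.03- and 4.21-fold and S100A7 between 2.76- and 8.52-fold. S100A12 ranged from 2.83- to 8.25-fold.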
